A study of Mus musculus with 6 samples.

Results

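The kinesin motor genes were chosen by their annotated symbol, Kif plus a number, among genes that had a probe set of their own on the array. The rule found 37 of the 18193 such genes, and no other symbol on the array began with Kif and a number. Each is described by its brightest probe set. From their known roles, though with earlier results of these data known, 12 were counted as mitotic, 13 as transport and 12 as other kinesins. Kinesins use ATP to move along microtubules or, in some families, to take microtubule ends apart. One set builds and moves the mitotic spindle and completes cell division, and its genes are transcribed mostly in late G2 and mitosis. Another set carries vesicles, mitochondria, endosomes and ciliary cargo, usually away from the cell centre and against the direction taken by cytoplasmic dynein.

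Transcript levels were measured by Affymetrix Mouse Genome 430 2.0 arrays in Ba/F3-N cells, a mouse bone marrow-derived line transformed with the G12D form of the small GTPase NRAS. One group of 3 samples received NADA (N-arachidonoyl dopamine, a lipid in which dopamine is joined to arachidonic acid, active at vanilloid and cannabinoid receptors) at 1 µM for 12 hours. The other group of 3 received the same volume of vehicle and was collected at the same time. All 6 samples carry the NRAS allele, so the comparison holds no cells without it. The labels say neither whether the replicates were separate cultures nor whether the line is a single clone, and p-values then measure only the spread between these samples, which may be technical. In such bulk RNA, fewer cells in a given phase of the cycle and less RNA per cell cannot be told apart.

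Values are the deposited intensities, which are linear and have nearly equal medians between arrays. A difference is therefore relative to the bulk of genes. The 6 array medians lay between 38.0 and 39.2, and arrays of one group correlated across genes at 0.997 to 0.998, against 0.936 to 0.939 between groups. Bacterial poly-A control RNAs, put into each sample before labelling, read 8.87, 8.81 and 8.49 (mean log2) on the NADA arrays and 8.16, 8.13 and 8.14 on the vehicle arrays. When each array was scaled to these controls instead, the median log2 fold change of all genes moved from 0.009 to -0.57. The log2 ratio of 3' to 5' Actb probe sets was 1.06 ± 0.05 (SD, n = 3) in NADA and 0.67 ± 0.04 in vehicle. The part of these differences in the kinesin results was not tested.

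Of the 37 kinesin genes, 24 passed the filter on dim values, a mean log2 intensity equal to at least 38.6 on the linear scale, and 13 did not and were not tested. A gene was called at a limma adjusted p (Benjamini-Hochberg over 10526 genes) under 0.05. Among the 24 kinesins, 9 fell (37.5%) and 8 rose (33.3%), against 37.5% and 35.8% of all genes tested. The 3 NADA values lay wholly above or below the 3 vehicle values for 17 kinesins (70.8%), against 75.9% of all genes. All 3 shares lay near those of all genes, and the median log2 fold change was -0.007 over the kinesins and 0.009 over all genes. The directions were divided by role: with the values as deposited, 6 of 9 tested mitotic kinesins fell and none rose by limma, while 6 of 10 transport kinesins rose and 1 fell. The median log2 fold change was -0.16 for the mitotic and 0.21 for the transport kinesins. Within groups, the median log2 intensity of each class had an SD between arrays of 0.044 and 0.056, which is not the spread of these fold changes. Under poly-A scaling the transport median reversed to -0.37 and the mitotic median was -0.74. This scaling shifts every gene by the same amount, so it leaves the gap between the classes as it was and changes only where 0 lies.

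**Figure D1:**
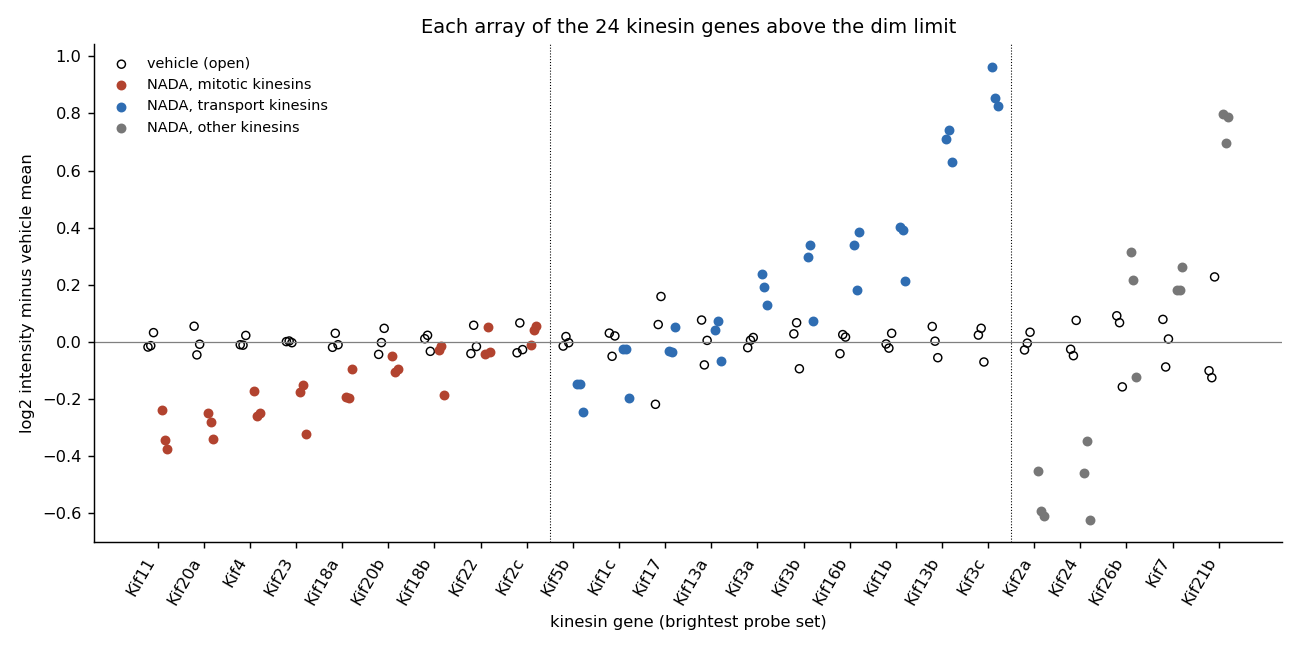
Log2 intensity of each array (vertical axis) for the 24 tested kinesin genes (horizontal axis), minus the mean of the 3 vehicle arrays. Open circles are vehicle arrays and filled circles NADA arrays. As deposited, the NADA circles of 6 mitotic genes lie below all vehicle circles and those of 6 transport genes above them, of which Kif3c alone was still called higher under poly-A scaling (not drawn). Groups without overlap, in either direction, were found for 66.7% of tested mitotic and 70% of tested transport kinesins, against 75.9% of all genes.

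Of the 12 mitotic kinesins, Kif11, Kif20a, Kif4, Kif23, Kif18a and Kif20b fell, Kif18b, Kif22 and Kif2c were not called, and 3 were dim. The largest fold on the brightest probe set was 1.25, for Kif11. Kif11 slides antiparallel spindle microtubules apart and is required for a bipolar spindle. It read 835, 776 and 759 in NADA and 972, 976 and 1007 in vehicle, and the groups did not overlap. Its log2 fold change was -0.32 ± 0.04 (SE, n = 3 per group), with a 95% interval of -0.41 to -0.23 and an adjusted p of 3.01e-06. The 2 dimmer probe sets of Kif11 differed more, with log2 fold changes of -0.58 (423, 432 and 391 against 617, 610 and 629) and -0.74 (232, 224 and 173 against 373, 329 and 343).

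Kif20a, which brings the Aurora B complex to the central spindle, read 388, 380 and 364 in NADA and 479, 447 and 458 in vehicle. All NADA values lay below all vehicle values, and the log2 fold change was -0.29 ± 0.05 (adjusted p 2.71e-05). Kif4, a chromosome-bound motor that also limits the length of central spindle microtubules, read 333, 313 and 315 against 372.5, 372.1 and 381. It fell by 0.23 on the log2 scale (adjusted p 0.000289), again with no overlap. Kif23 forms the centralspindlin complex with Racgap1, and read 640.4, 652 and 578 in NADA against 724, 725 and 722 in vehicle. The vehicle arrays were nearly equal, the third NADA array was the lowest, and the gene fell by 0.22 (adjusted p 0.00047). All 3 of its probe sets above the dim limit were lower.

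Kif18a, which caps microtubule plus ends and damps the oscillation of chromosomes at metaphase, read 184.2, 184.1 and 197 in NADA and 208, 215 and 209 in vehicle. The gene fell by 0.16 ± 0.05 (adjusted p 0.0115), and with quantile normalization its adjusted p was 0.0517. Kif20b, which acts late in cytokinesis, read 1372, 1321 and 1329 against 1378, 1418 and 1468. The gap between the groups was small, the log2 fold change was -0.084 ± 0.035 and the adjusted p 0.0423. That call was lost without the second NADA array (adjusted p 0.134), the second vehicle array (0.0934) or the third vehicle array (0.204), and with quantile normalization (0.931). A dimmer probe set of Kif20b read 555, 551.5 and 580 in NADA and 667, 645.5 and 658 in vehicle. Its log2 fold change was -0.22 (limma adjusted p over passing probe sets 0.000202). The mean of the Kif20b probe sets above the dim limit gave -0.154 (adjusted p 0.000491).

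The other 3 tested mitotic kinesins were not called on their brightest probe set. Kif18b, a plus-end depolymerase of astral microtubules, read 371, 375 and 333 in NADA and 382, 385 and 370.3 in vehicle, with an interval of the log2 fold change from -0.19 to 0.032. Kif22, a chromosome-arm motor, read 1782, 1901 and 1791 against 1783, 1910 and 1814. The groups covered nearly the same range, and the log2 fold change was -0.009 (-0.087 to 0.069). Kif2c, which takes microtubule ends apart at kinetochores to correct faulty attachments, read 421, 437 and 441 against 414, 445 and 417 (0.027, with an interval of -0.07 to 0.12).

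The brightest probe sets of Kif22 and Kif2c are both of the type that can bind several transcripts, and some of their other probe sets were called lower in NADA. A gene-specific probe set of Kif22 read 147, 149.7 and 142 in NADA and 191, 193 and 193 in vehicle, a log2 fold change of -0.40, and a further one, of the type shared between transcripts, gave -0.29. For Kif2c a gene-specific probe set read 125, 136 and 124 against 145, 147 and 147 (-0.19), another gave -0.25, and a further gene-specific one read 48.0, 49.4 and 44.0 against 47.3, 41.9 and 50.7 and was not called (0.017). Counted over probe sets, 15 of the 19 mitotic kinesin probe sets above the dim limit were lower (78.9%) and none was higher by limma, against 38.2% lower and 33.7% higher among all 18979 passing probe sets with 1 gene. These 19 come from 9 genes and from the same 6 arrays, so they are repeated readings and not further replicates. The remaining mitotic members were dim. Kif14, which acts in cytokinesis, read 16.9, 16.8 and 12.8 in NADA and 24.9, 24.3 and 22.4 in vehicle, Kif15, which can support a bipolar spindle beside Kif11, 23.1, 29.9 and 28.6 against 32.1, 38.0 and 34.3, and Kif2b 4.62 and 4.31 (group means).

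Promoters of mitotic genes often carry a cell cycle homology region (CHR), where the DREAM and MuvB complexes bind, together with CCAAT boxes for NF-Y, so the promoters of the kinesins were searched for these letters. RefSeq (GRCm38.p6) gave a promoter, 250 bases before to 50 after the annotated start, for 31 of the 37 members. It gave none for Kif20a, Kif13b, Kif5a, Kif5b, Kif21b and Kif28. Where a member had several listed promoters the first was taken, while the 32851 promoters used for comparison hold all that are listed. The search took TTTGAA and TTCGAA for the CHR, CCAAT for the CCAAT box, and TTTCCCGC and TTTGGCGC for E2F, each on both strands, and no motif was required not to overlap another. A CHR match was present in 9 of 11 mitotic promoters (81.8%), 0 of 10 transport promoters and 3 of 10 other kinesin promoters, against 19.2% of 32851 promoters of the same length. CCAAT was found in 7 of 11, 3 of 10 and 4 of 10, against 37.4% of all. A CHR together with CCAAT was found in 6 of 11 mitotic, 0 of 10 transport and 3 of 10 other kinesin promoters, against 7.5% of all promoters. E2F matches were in the promoters of Kif15 and Kif18a and in 1.6% of all. The mitotic promoters with a CHR match include those of Kif22, Kif18b and Kif2c, which were not called on the brightest probe set, and that of Kif18a, which fell, held none. The promoter of Kif11 is shown because this motor fell furthest among the mitotic kinesins; it was added to the promoters that the rule for shown sequences gives. It spans chr19:37376132-37376431 on the plus strand, its capitals mark the CCAAT match at -45 and the CHR match at -19, and positions are counted from the start site. A match is only a match of letters.
Kif11: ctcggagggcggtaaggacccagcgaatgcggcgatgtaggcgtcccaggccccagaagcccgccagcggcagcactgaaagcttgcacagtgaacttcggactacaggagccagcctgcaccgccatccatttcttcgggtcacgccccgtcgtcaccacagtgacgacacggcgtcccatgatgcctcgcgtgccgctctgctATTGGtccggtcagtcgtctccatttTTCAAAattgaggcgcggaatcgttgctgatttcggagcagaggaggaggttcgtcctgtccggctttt

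Of the 3 members with the highest log2 fold changes, Kif3c and Kif13b were transport kinesins and Kif21b was not. Kif3c, which pairs with Kif3a in a motor of the kinesin-2 type, read 403, 374 and 366 in NADA and 210.2, 214 and 197 in vehicle. Every NADA array lay far above every vehicle array, and the gene rose 1.84-fold, a log2 fold change of 0.88 ± 0.05 (interval 0.77 to 1.0, adjusted p 2.71e-10). The other motor subunits of this type that rose did so by less. Kif3b, which pairs with Kif3a in place of Kif3c, read 117, 121 and 100.5 against 97.3, 99.99 and 89.4, so the third NADA array barely cleared the vehicle range, and its log2 fold change was 0.24 ± 0.08 (adjusted p 0.0115). The call of Kif3b was lost without the second NADA array (adjusted p 0.0667) or the third vehicle array (0.0613), and with a floor of 50 (0.0563). Among the 4 Kif3b probe sets above the dim limit, 2 were higher and 2 were not called. Their median gave 0.135 (adjusted p 0.11). Kif3a, the subunit common to these motors, read 196, 189.7 and 182 against 164, 167 and 168 and rose by 0.19 (adjusted p 0.00542). Among the 4 Kif3a probe sets above the dim limit, 3 were higher and 1 was not called (-0.016). The non-motor subunit Kifap3, which links these motors to cargo, rose by 0.18 (adjusted p 0.00462). Kif17, a motor of the same type that moves ciliary and dendritic cargo, read 63.05, 62.8 and 66.9 against 55.4, 67.2 and 72.0 and was not called (interval -0.20 to 0.19). Under poly-A scaling Kif3c was 0.30 higher (adjusted p 0.0143), and Kif3a and Kif3b reversed to -0.39 and -0.34.

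Motors of the kinesin-3 type, which carry vesicles and organelles toward microtubule plus ends, were mixed. Kif13b, which delivers membrane proteins to the cell surface, read 104, 107 and 98.7 in NADA and 66.2, 63.9 and 61.4 in vehicle. The groups were well apart, and the gene rose 1.62-fold (log2 fold change 0.69 ± 0.07, adjusted p 1.11e-07). Under poly-A scaling Kif13b was 0.12 with an adjusted p of 0.442 and was not called. Kif1b, a carrier of mitochondria and of synaptic vesicle precursors, read 172, 171 and 151 against 129, 128 and 133 and rose by 0.335 (adjusted p 0.000162). Its 6 probe sets above the dim limit disagreed: 3 were higher, 1 was lower (-0.24) and 2 were not called, and with all 6 averaged the log2 fold change was 0.072 (adjusted p 0.301). Kif16b, which moves early endosomes, read 332, 298 and 343 against 255, 267 and 266 on a probe set that can bind several transcripts. It rose by 0.30 (adjusted p 0.000137), and a gene-specific probe set rose by 0.19. Kif13a, a motor of recycling endosomes, read 353, 361 and 327 against 361, 324 and 344, with overlapping groups (interval -0.098 to 0.13). Of its 5 probe sets above the dim limit, 1 was lower (-0.36) and 4 were not called. For Kif1c, which carries vesicles from the Golgi region, the values were 225.1, 225.1 and 199.9 against 234, 221 and 232, and the interval ran from -0.205 to 0.041.

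Kif5b, the widely expressed heavy chain of conventional kinesin, was the 1 transport kinesin that fell. It read 1558, 1557 and 1454 in NADA and 1708, 1748 and 1722 in vehicle, with no overlap, and fell by 0.18 ± 0.04 (adjusted p 2e-04). Of its 6 probe sets above the dim limit, 2 were lower and 4 were not called, and they ranged from -0.38 to 0.13, so that the mean of all 6 gave -0.083 (adjusted p 0.122). The heavy chains known mainly from neurons, Kif5a and Kif5c, and the neuronal vesicle motor Kif1a were dim. Kif5a was the member just under the limit (40.2, 35.3 and 37.3 in NADA, and 36.6, 33.5 and 35.0 in vehicle), and Kif26b was the member just above it. Over probe sets, 12 of 33 transport kinesin probe sets were higher (36.4%) and 4 lower (12.1%), so the share that rose lay near the 33.7% of all passing probe sets, and the share that fell lay under their 38.2%. The promoters of Kif3c, the highest of all members, and of its close paralog Kif3b are shown to set beside that of Kif11. That of Kif3c spans chr12:3364882-3365181 on the plus strand and holds none of the motifs searched. That of Kif3b spans chr2:153291166-153291465 on the plus strand and holds a CCAAT match at -69, in capitals.
Kif3c: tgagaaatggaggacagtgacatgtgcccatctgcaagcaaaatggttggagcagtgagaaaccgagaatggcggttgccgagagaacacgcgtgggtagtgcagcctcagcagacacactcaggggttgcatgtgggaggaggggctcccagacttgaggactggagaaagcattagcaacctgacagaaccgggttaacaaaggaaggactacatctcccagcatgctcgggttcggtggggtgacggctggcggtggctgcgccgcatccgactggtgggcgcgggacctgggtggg
Kif3b: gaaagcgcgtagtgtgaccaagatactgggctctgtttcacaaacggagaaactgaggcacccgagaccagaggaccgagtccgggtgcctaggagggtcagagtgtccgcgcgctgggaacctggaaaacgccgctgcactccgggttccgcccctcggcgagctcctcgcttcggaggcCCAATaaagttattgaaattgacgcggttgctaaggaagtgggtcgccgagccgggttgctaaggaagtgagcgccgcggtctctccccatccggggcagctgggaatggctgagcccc

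**Figure D2:**
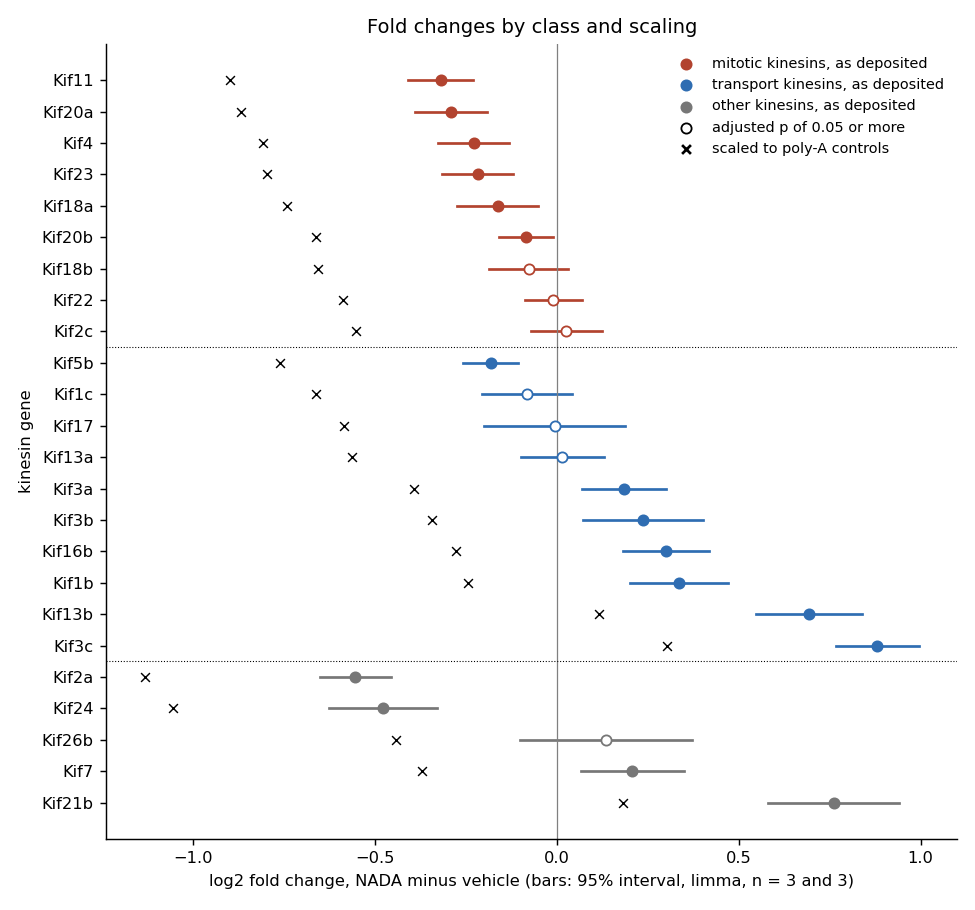
Log2 fold change of NADA minus vehicle (horizontal axis) for the 24 tested kinesin genes, with 95% intervals of the limma fit (3 arrays per group), filled where called. Crosses give the same fold changes after each array was scaled to its poly-A controls: all 9 mitotic genes and 7 of 10 transport genes then lay lower and were called, and Kif3c alone was called higher.

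Of the 5 tested other kinesins, Kif2a and Kif24 fell, Kif21b and Kif7 rose, and Kif26b was not called. Kif2a, a depolymerase of the same family as Kif2c that acts at spindle poles and in neurons, had the lowest log2 fold change of all 24. It read 548, 498 and 491 in NADA and 736, 748 and 769 in vehicle, with no overlap, which was 1.47-fold lower (-0.55 ± 0.05, adjusted p 1.48e-08). All 4 of its probe sets above the dim limit were lower, between -0.75 and -0.27. Kif24, a depolymerase at the mother centriole that restrains the growth of cilia, read 129, 139.8 and 116 against 175, 172 and 188. It fell by 0.48 ± 0.07 (adjusted p 1.24e-05), and the groups were apart.

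Kif21b, which pauses growing microtubule ends and is known from neurons and T cells, read 146, 136 and 146 in NADA and 78.5, 77.2 and 98.6 in vehicle. The third vehicle array was above the other two but below every NADA array, and the gene rose 1.69-fold (0.76 ± 0.08, adjusted p 4.89e-07). Kif7, which shapes Hedgehog signalling at the tip of the cilium, read 105.3, 105.4 and 112 against 98.2, 87.4 and 93.6 and rose by 0.21 (adjusted p 0.0105). Without the second vehicle array its adjusted p was 0.0559. Kif26b, an atypical member that lacks motor activity, read 51.2, 47.9 and 37.8 against 43.9, 43.2 and 36.9 and was not called (interval -0.10 to 0.37). Under poly-A scaling Kif7 reversed to -0.37, and Kif21b was 0.18 with an adjusted p of 0.186. The other 7 of this class, Kif6, Kif9, Kif12, Kif21a, Kif26a, Kif27 and Kif28, were dim. Over the 13 dim members, single arrays read from 4.06 to 40.2.

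The promoters of Kif2a and Kif24, the members with the lowest log2 fold changes, are shown with that of Kif2c, the paralog of Kif2a. That of Kif2a spans chr13:107022306-107022605 on the minus strand and holds none of the motifs. That of Kif2c spans chr4:117178723-117179022 on the minus strand, with a CHR match at -103. That of Kif24 spans chr4:41464799-41465098 on the minus strand and has a CHR match at -26 and 4 CCAAT matches. Capitals mark the matches, which stand as the reverse complement where the motif lies on the other strand. Kif2a thus fell without a match in this window and Kif2c carried one without a call on its brightest probe set.
Kif2a: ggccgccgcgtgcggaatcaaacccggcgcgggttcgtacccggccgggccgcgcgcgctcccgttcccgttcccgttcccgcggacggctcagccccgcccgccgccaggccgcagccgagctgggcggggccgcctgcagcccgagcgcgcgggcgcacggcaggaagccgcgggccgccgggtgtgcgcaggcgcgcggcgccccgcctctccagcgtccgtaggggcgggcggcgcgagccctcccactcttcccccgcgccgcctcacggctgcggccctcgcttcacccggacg
Kif2c: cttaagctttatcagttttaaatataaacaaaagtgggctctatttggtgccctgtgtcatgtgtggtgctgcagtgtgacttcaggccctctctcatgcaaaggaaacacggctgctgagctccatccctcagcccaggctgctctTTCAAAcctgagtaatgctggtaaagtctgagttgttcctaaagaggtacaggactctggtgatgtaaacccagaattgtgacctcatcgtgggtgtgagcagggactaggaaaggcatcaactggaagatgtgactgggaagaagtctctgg
Kif24: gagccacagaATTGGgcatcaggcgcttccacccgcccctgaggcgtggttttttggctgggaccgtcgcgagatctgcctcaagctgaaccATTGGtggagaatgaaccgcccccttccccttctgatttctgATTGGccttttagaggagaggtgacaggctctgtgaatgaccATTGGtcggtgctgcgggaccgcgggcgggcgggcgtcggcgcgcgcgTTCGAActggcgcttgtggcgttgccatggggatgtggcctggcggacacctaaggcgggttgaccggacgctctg

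**Figure D3:**
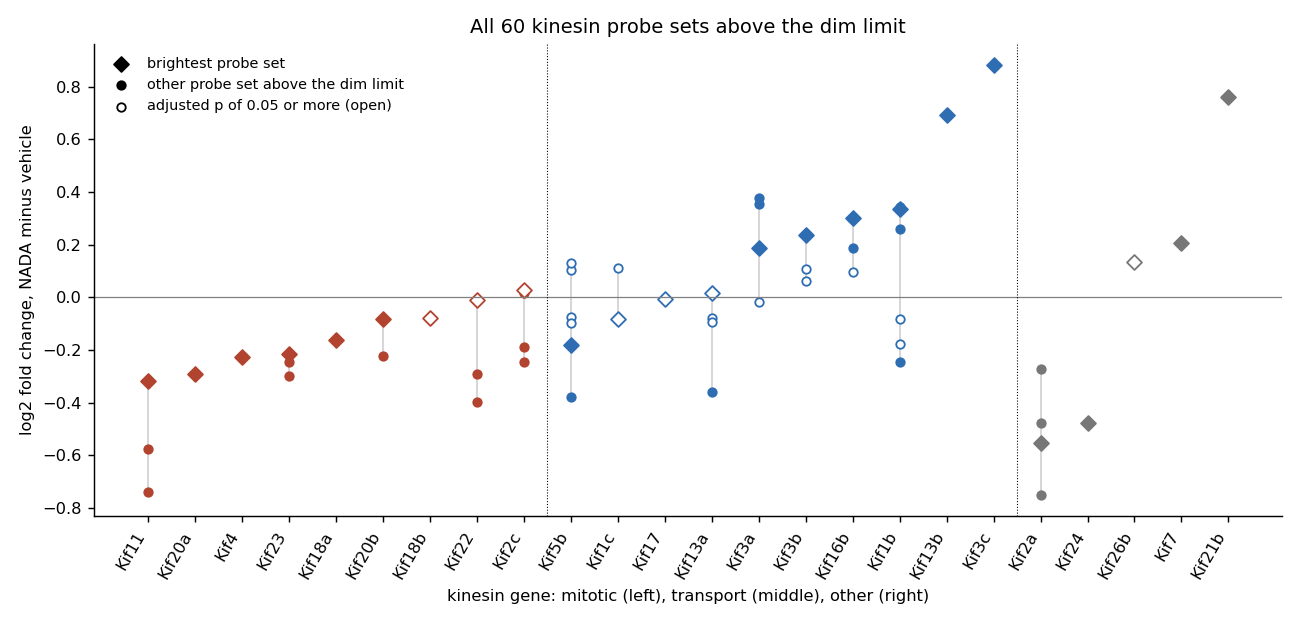
Log2 fold change of NADA minus vehicle (vertical axis) of each of the 60 kinesin probe sets above the dim limit, by gene. Diamonds are the brightest probe set of a gene, circles its other probe sets, and open symbols those with an adjusted p of 0.05 or more. The 15 called mitotic probe sets all lie under 0, while Kif1b has called probe sets on both sides. Values are as deposited, and under poly-A scaling each would lie 0.58 lower.

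Kinesins that carry other names were looked at beside the members. Cenpe, the kinetochore motor that brings chromosomes to the spindle equator, read 709 in NADA and 614 in vehicle (means) and rose by 0.21 (adjusted p 0.00166), opposite to the called mitotic members. The minus-end motor Kifc3 fell by 0.235 (adjusted p 0.0196). Kifc1, which focuses spindle poles, was not called (139 against 144, adjusted p 0.511), and 3 further genes of this list were dim.

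Of the 25 tested genes that work with the mitotic kinesins, 18 fell (72%) and 3 rose (12%), beside 37.5% and 35.8% of all genes, and their median was -0.26. Aurkb, the kinase that Kif20a carries to the central spindle, fell by 1.13 (mean 284 against 621, adjusted p 1.68e-12), which exceeded the change of any kinesin. Its complex partners Birc5 (-0.65, adjusted p 7.11e-10) and Incenp (-0.34, adjusted p 1.78e-08) fell, and the mitotic kinase Plk1 fell by 0.63 (adjusted p 1.16e-08). Racgap1, the partner of Kif23, fell by 0.19 (adjusted p 0.000339), and Prc1, the partner of Kif4, fell by 0.29 (adjusted p 2.14e-05). These 2 were named after their values were seen. The kinetochore component Ndc80 (0.345), Cenpe (0.21) and the spindle protein Nusap1 (0.11) rose. Among regulators of mitotic transcription, 15 of 22 fell (68.2%) while 2 rose (9.09%), beside the same 37.5% and 35.8% of all genes, and the median was -0.40. Mybl2, an activator in the MuvB complex, had the lowest log2 fold change of the list, -2.17 (mean 53.5 against 239, adjusted p 7.5e-13). The E2F partner Tfdp1 (-1.57), E2f3 (-1.17) and Cdk1 (-0.985) fell too. The pocket protein Rbl2 (p130) and the MuvB subunit Lin37, both part of the repressing DREAM complex, rose by 0.95 (mean 333 against 172.5, adjusted p 1.3e-10) and 0.715 (mean 151 against 91.8, adjusted p 2.51e-08). Among further genes of these complexes, Rbl1 (-0.82), Lin9 (-0.465) and Rbbp4 (-0.12), named after their values were seen, fell, as did Tfdp1 (-1.57). E2f4, E2f5, Lin52 and Lin54 were not called. The kinesin changes were thus smaller than those of several of these regulators in the same arrays.

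Partners of the transport motors moved both ways. Of 14 tested light chains and cargo adaptors 8 rose (57.1%) and 4 fell (28.6%), beside 35.8% and 37.5% of all genes, and the median was 0.18. The adaptor Kidins220 rose by 1.09 (mean 1509 against 708, adjusted p 1.5e-12), the light chain Klc4 by 1.22 (mean 187.5 against 80.5), Kifbp, which binds and inhibits several kinesins, by 0.67 and Fez2 by 0.50. Those that fell included Trak2, an adaptor of mitochondrial transport (-0.31, adjusted p 0.00013), and the lysosomal positioning subunit Borcs5 (-0.47, adjusted p 3.5e-06). Of 22 tested subunits and adaptors of cytoplasmic dynein and dynactin, the motor complex that runs the other way, 15 rose and 5 fell, beside 35.8% and 37.5% of all genes, and the median was 0.405. Ndel1, a dynein regulator, rose by 1.0 (mean 1140 against 569), Dctn4 by 0.77, Dctn2 by 0.74 and the intermediate chain Dync1i2 by 0.65. The light chain Dynll2 fell by 1.10 (mean 464.5 against 994), and the adaptor Bicd2 (-0.57), Nde1 (-0.34), Dync1li1 (-0.23) and Dynlrb1 (-0.15) fell as well. No test was made between the lists, and under poly-A scaling every log2 fold change of these partners would be 0.58 lower.

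**Figure D4:**
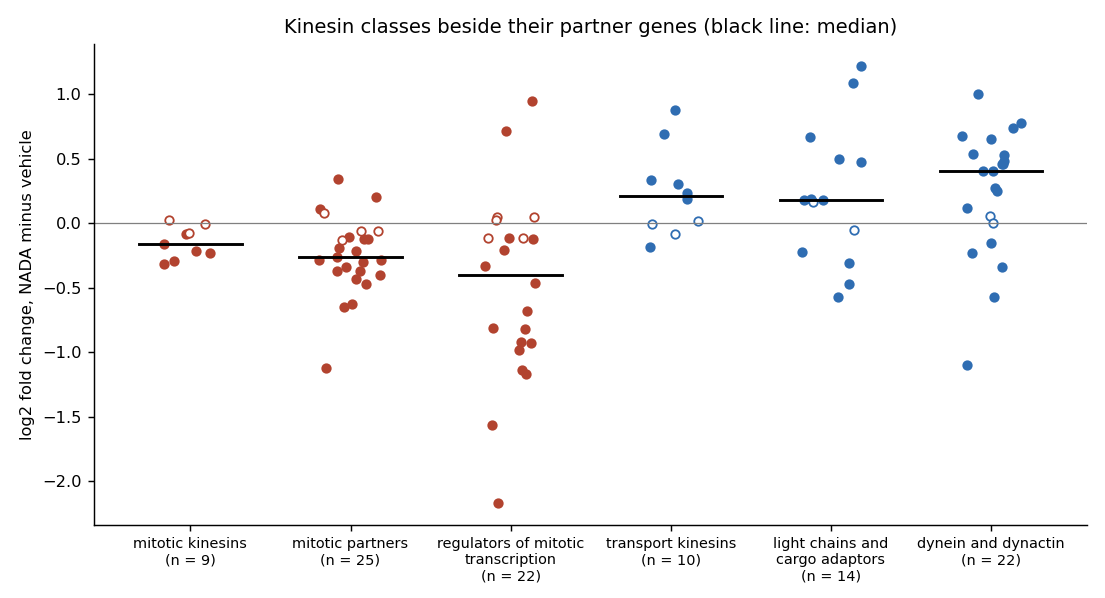
Log2 fold change of NADA minus vehicle (vertical axis, as deposited) of the tested genes in 6 lists, with open circles where the adjusted p was 0.05 or more and a black line at the median. The mitotic kinesins have a median of -0.16 beside -0.26 for their partners and -0.40 for the regulators, and the transport kinesins 0.21 beside 0.18 and 0.405. Under poly-A scaling all 6 medians would be 0.58 lower, and the 3 that are above 0 would be below it.

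The labelled cell type was checked against marker genes. Of 10 haematopoietic markers 9 were above the dim limit, and their summed intensity ran from 23240 to 23430 on NADA arrays and from 15340 to 15660 on vehicle arrays. Of these 9, 5 rose (55.6%) and 4 fell (44.4%), beside 35.8% and 37.5% of all genes. Csf2rb2 (mean 3574 against 702.5) and Csf2rb (3337 against 990) were among those that rose, and Coro1a (1568 against 2932), Gata2, Cd48 and Spn fell. Of 10 pro-B markers on the array 2, Cd79b and Igll1, were above it, and Cd79a, Pax5, Ebf1, Rag1 and Dntt were dim, so the arrays show a haematopoietic line with most defining pro-B genes at dim values. Markers of T cells and macrophages were above the limit for 5 of 8 genes. Their sums were 729.8 to 748 in NADA and 449 to 491 in vehicle. Of the 5 above the limit, 4 rose (80%) and 0 fell, beside 35.8% and 37.5% of all genes. Adgre1 rose by 1.36 and Lyz2 by 0.74 on the log2 scale, and Cd4 (0.20) and Csf1r (0.18) by less. Cd3e was not called, and Itgam, Cd3d and Cd8a were dim. Of 9 neuronal markers 1 was above the limit, and of 11 fibroblast, epithelial and endothelial markers 3 were, with sums of 192 to 204 and 352 to 366 in NADA against 183 to 207 and 366 to 379.5 in vehicle. The part of these marker differences in the kinesin results was not tested.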

How the data were processed

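RNA of 3 NADA and 3 vehicle samples was hybridised to 1 array each. The deposited intensity values are linear, 1 for each of 45101 probe sets; per the submitters' processing notes MAS5 and RMA were used, with version and role not given in the sources used here. They were used as deposited after log2. Probe sets paired with 1 gene by the platform annotation (34945; 932 had several genes and 9160 none) were kept where their mean log2 over 6 arrays reached the median of non-control probe sets (38.6), and the brightest per gene gave 10526 genes. Gene identifiers of 34741 probe sets matched RefSeq (GRCm38.p6), and 0 symbols changed.

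The groups were compared per gene in R 4.3.3 with limma 3.58.1 (linear model on group only, eBayes with an intensity trend, two-sided), with Benjamini-Hochberg adjustment over all genes, and tested on simulated data. For arrays, the number of samples (3 per group) limits the precision, and an exact permutation test of 3 against 3 could not go below 0.1. The ± beside a log2 fold change is a standard error. The members, classes and lists were chosen with earlier results of these data known. From each partner list up to 4 called genes with the smallest p were named, with any of opposite direction, except some genes of the adaptor list, which are not reported here. Poly-A scaling used the Dap, Lys, Phe, Thr and r2-Bs probe sets (24). The TrpnX probe sets, which sit at the floor, were left out after their values were seen. Alternatives covered normalization, pseudocount, floor, dim filter, probe set choice, trend, array weights, thresholds, replicate block, classes and leaving out each array. Plots used matplotlib 3.10.9.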

Additional observations from a re-analysis of the deposited data

Results flagged for a closer look

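Both differences here are in control probe sets, which the kinesin comparisons of the deposited values do not use; the poly-A probe sets enter only the poly-A scaled values. The bacterial poly-A control RNAs had a mean log2 intensity 0.578 higher on NADA arrays than on vehicle arrays, and the third NADA array (8.49) stood lower than the other NADA arrays (8.87 and 8.81). The log2 ratio of the 3' to the 5' Actb probe sets was 0.397 higher on NADA arrays. The same ratio for Gapdh differed by 0.15, and the hybridization controls, which are added after labelling, by 0.15.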

How the results depend on the processing

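The result that depends most on the processing is the sign of the transport kinesins. Scaled to poly-A controls, 20 kinesins were lower and 1 higher (1 transport kinesin), all genes had a median of -0.57, and the class medians were -0.741 (mitotic) and -0.367 (transport). Log2 fold changes reversed for Kif13a (-0.562), Kif16b (-0.277), Kif1b (-0.243, not called), Kif26b (-0.442), Kif2c (-0.551), Kif3a (-0.392), Kif3b (-0.342) and Kif7 (-0.37). With the TrpnX controls and without r2-Bs, the first version run, 18 were lower and 2 higher (1 transport), the medians were -0.611 and -0.237, and the same genes read -0.432, -0.147, -0.113, -0.313, -0.421, -0.262, -0.212 and -0.24. The cause was not tested. Averaging the probe sets of a gene gave class medians of -0.228 and 0.117, their median (chosen after seeing the data) -0.228 and 0.131 with Kif2c at -0.219, and probe sets without the x or s suffix a mitotic median of -0.217 with Kif2c at -0.19. Without a dim filter the transport median was 0.102, and a filter at the 70th percentile, which tests fewer genes, left 4 higher kinesins. A minimum of 1.5-fold left 0 lower and 3 higher kinesins by limma (0 mitotic, 2 transport) and 3031 of all genes. Leaving Kif3a, Kif3b, Kif3c and Kif17 out of the transport class left 3 higher. With Kif2a counted as mitotic, 7 mitotic kinesins were lower and the median was -0.19. With Kif21a and Kif21b counted as transport, 7 transport kinesins were higher and the median was 0.236. A dim filter on the arithmetic mean, the first version run, gave the same 9 lower and 8 higher kinesins in number. Leaving out 1 array at a time gave 8 to 9 lower and 7 to 9 higher kinesins, and class medians of -0.172 to -0.146 and 0.184 to 0.237. Samples with a shared replicate number had correlations of deviations of 0.165, -0.10 and 0.019, against -0.209 to 0.186 over all cross pairs. With 3 arrays per group this cannot settle whether the numbers mark pairs. With the replicate block 9 kinesins were lower and 8 higher, with 7742 genes called in all. Calls of single members that were lost elsewhere were those of Kif20b, Kif18a, Kif3b, Kif7, Kif1b and Kif5b, and at an adjusted p under 0.01 the counts were 7 lower and 6 higher. Kif26b was called higher without the third NADA array (0.265, adjusted p 0.026) and with array weights.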
